A study of Nicotiana benthamiana with 12 samples.

Results

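The genes described here are those whose homology text in the deposited gene table of Nicotiana benthamiana begins with the words "30S ribosomal protein". They were selected on this text alone, ignoring case, and number 199 of 40763 genes. The text gives each gene a bacterial protein number, and 22 such numbers occurred, from S1 to S21 and S31. S12 had the most genes, with 20, followed by S7 with 15 and by S13, S14 and S19 with 13 each.

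The 30S particle is the small subunit of the bacterial ribosome, in which a scaffold of 16S ribosomal RNA and its proteins hold the messenger RNA and check the match of codon and transfer RNA. Plastids and mitochondria descend from bacteria and keep ribosomes of this kind, which in leaves make core proteins of photosynthesis and respiration. In tobacco and its relatives some plastid 30S proteins are encoded in the plastid genome and the others in the nucleus, from which they are made on cytosolic ribosomes and imported. The cytosolic ribosome has a 40S small subunit of its own, and its proteins have their closest prokaryotic relatives in archaea.

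The organellar reading of the name held for part of the genes. The best database match of 73 of the 199 genes was an archaeal protein, while 28 matched a cyanobacterial protein, 75 another bacterium and 23 a plant protein. The word chloroplastic stood in 21 texts, the word mitochondrial in 1, and neither in 177. The genes are therefore given in 3 classes, chosen after the table had been seen. The first is the 73 genes with an archaeal match, whose relatives in plants are the proteins of the cytosolic 40S subunit. The other genes are split by their number into 55 genes with a number that tobacco plastid genomes lack (S1, S5, S6, S9, S10, S13, S17, S20, S21 and S31, here called nuclear-only numbers) and 71 genes with a number that these genomes hold (S2 to S4, S7, S8, S11, S12, S14 to S16, S18 and S19, here called plastid-genome numbers). A plastid-genome number can also name a gene for a mitochondrial protein, so the last class is about the number and not about the compartment. The name nuclear-only likewise refers to plastid genomes alone. Genes of the mitochondrial genome were not told apart in any class.

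Leaves of 5-week-old soil-grown plants, with no transgene or mutation named, were compared between plants left at 23 °C (mock) and plants exposed to 37 °C for 1 h (heat), to ask how heat changed transcript abundance and translation. From each treatment, total RNA and polysome RNA, the transcripts bound by several ribosomes, were sequenced in 3 libraries, which the submitters call biological replicates. The library titles carry the numbers 5, 6 and 7 in the mock total and heat polysome groups and 2, 3 and 4 in the other 2 groups, and libraries are listed in that order below. Library totals were 10724854 to 14485118 counts. Genes for leaf chlorophyll-binding and Rubisco small-subunit proteins, 89 in all, summed to 117360 to 149280 CPM, counts scaled to library size, in total RNA and 208650 to 418990 CPM in polysome RNA, and 2 floral genes stayed at or below 3.52 CPM. In bulk leaf RNA, fewer cells of a type and less RNA per cell cannot be told apart. Gene lengths were not used, so levels are compared between libraries and not between genes.

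Mock total libraries 6 and 7 stood apart. Transcripts of plastid genome type, such as the photosystem II D1 protein and the Rubisco large chain, had a sum over 96 genes of 311, 5730 and 6104 CPM in libraries 5, 6 and 7, with 117 to 137 CPM in heat total RNA and 270 to 1367 CPM in polysome RNA. Of the 199 genes, 44 were at least 3 times as high in both libraries 6 and 7 as in library 5. These were 36 of the 71 genes with plastid-genome numbers, 8 of the 55 with nuclear-only numbers and 0 of the 73 with an archaeal match. Each comparison that uses mock total RNA is therefore also given with library 5 as its sole mock total library, a fit that takes the spread from the other groups.

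Enough counts for a test were found in 159 of the 199 genes, of 34325 in the whole table. The tested genes were 71 of 73 with an archaeal match, 51 of 55 with nuclear-only numbers and 37 of 71 with plastid-genome numbers. The filter asked for about 0.813 CPM in at least 3 libraries, and 134 of the tested genes were above this in all 12 libraries, 11 in 3 to 5 libraries, and 0 in libraries of 1 group alone. The 40 untested genes had at most 51 counts in any library and a mean of at most 0.849 CPM, and 25 of them were at least 3 times as high in mock total libraries 6 and 7 as in library 5.

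Summed over the genes with an archaeal match and over those with nuclear-only numbers, levels were lower in every heat total library than in any mock total library, and higher in polysome RNA than in total RNA. The 73 genes with an archaeal match summed to 1451 ± 261 CPM in mock total RNA and 1145 ± 46.4 CPM in heat total RNA (mean ± SD, n = 3), and to 3012 ± 691 CPM and 2461 ± 156 CPM in mock and heat polysome RNA. The 55 genes with nuclear-only numbers summed to 1530 ± 198 CPM and 1117 ± 18.5 CPM in total RNA and to 2782 ± 180 CPM and 2573 ± 304 CPM in polysome RNA. For both classes, every polysome library was above every total RNA library. The 71 genes with plastid-genome numbers had sums of 164, 377 and 335 CPM in libraries 5, 6 and 7 of mock total RNA and of 161 to 171 CPM in heat total RNA, so that library 5 lay within the heat range and libraries 6 and 7 above it. In polysome RNA the same class summed to 240.2, 308.6 and 257.1 CPM in mock and at least 254.4 CPM in each heat library, and these libraries overlapped.

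**Figure D1:**
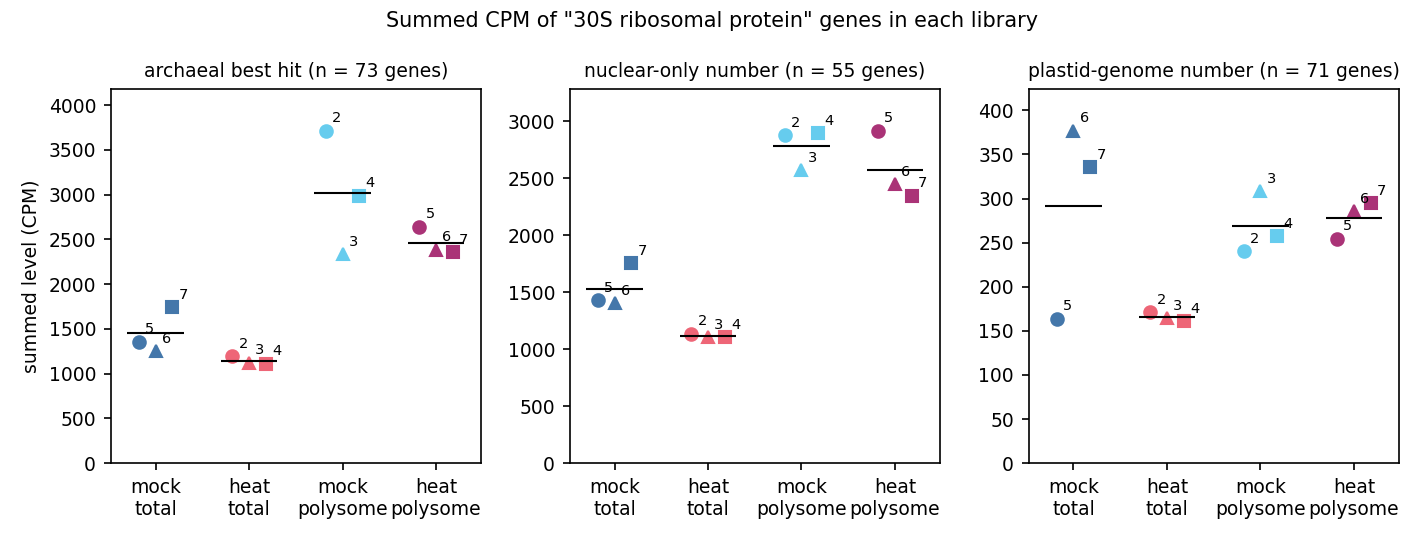
Summed level (CPM, linear axis from 0) of the 3 classes of 30S ribosomal protein genes in each of 12 libraries, with the title number beside each point and a bar at the mean of 3 libraries. In the class with plastid-genome numbers, mock total library 5 sits with the heat total libraries at 161 to 171 CPM while libraries 6 and 7 are at 377 and 335 CPM.

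The first comparison was of heat with mock in total RNA. Of the 159 tested genes, 5 rose, 67 fell and 87 did not pass an adjusted p of 0.05 (edgeR's quasi-likelihood test, Benjamini-Hochberg over all genes). Of all genes tested, 25.7% rose and 28.3% fell. The median log2 change of the 159 genes was -0.40, against -0.08 over all genes. By class, 3 rose and 29 fell of 71 with an archaeal match (median -0.41), 1 rose and 20 fell of 51 with nuclear-only numbers (median -0.28), and 1 rose and 18 fell of 37 with plastid-genome numbers (median -0.56). Without mock total library 7, 40 of the genes tested fell.

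The 5 genes that rose came from 5 different protein numbers. S6 sits on the platform of the subunit, paired with S18. The S6 gene Niben101Scf00132g03015.1, with a cyanobacterial match, was at 31.5, 27.9 and 35.4 CPM in mock total RNA, 62.2, 63.7 and 65.9 CPM in heat total RNA, 45.6, 63.0 and 73.7 CPM in mock polysome RNA and 117, 104 and 92.6 CPM in heat polysome RNA. Heat was above mock in both fractions with no overlap, and the gene rose by 1.02 ± 0.17 in total RNA and by 0.79 ± 0.17 in polysome RNA (log2 fold change ± SE, adjusted p = 0.00011 and 0.00098). With mock total library 5 alone the total RNA change was 1.05. The other 8 tested S6 genes showed no such rise in total RNA, with 3 that fell.

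S15 binds the central domain of the 16S RNA early in assembly and guides the S6 and S18 pair into place. The S15 gene Niben101Scf05824g09015.1 was at the lowest count of the table, 1, in all 3 mock total libraries, and reached 2.97, 2.28 and 2.68 CPM in heat total RNA. In polysome RNA it was at 0.285, 0.0764 and 0.112 CPM in mock and 5.41, 5.91 and 5.23 CPM in heat. Both folds that follow were taken after 1 was subtracted from each library's count, the lowest count of the table, and so are not ratios of the CPM above. The gene was at least 41.9-fold higher in heat total RNA, from 129 counts against a floor of 3 counts over the mock group. In polysome RNA 139 counts in heat stood against 2 in mock, a ratio of 88.2 per library size (95% counting interval 24 to 736). Both calls passed (adjusted p = 5.6e-08 and 2.7e-08). Every mock library lay below the filter's 0.813 CPM, so the gene entered the test only through the heat groups, where it is high. The other 2 tested S15 genes were not called in either fraction.

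S7 organizes the head of the subunit around the exit site of the transfer RNA. An S7 gene with an archaeal match, Niben101Scf30302g00003.1, was at 1.59, 1.88 and 2.11 CPM in mock total RNA and 5.83, 5.70 and 6.33 CPM in heat total RNA. In polysome RNA it went from 4.95, 3.13 and 4.70 CPM to 23.5, 19.6 and 21.04 CPM. It rose by 1.67 ± 0.21 and 2.34 ± 0.19 (adjusted p = 5.1e-06 and 5.8e-08), while of the other 7 S7 genes with an archaeal match 4 fell in total RNA and 6 fell in polysome RNA. The last 2 genes that rose also had an archaeal match and changed less. The S4 gene Niben101Scf06545g00010.1 rose by 0.46 ± 0.13 and the S19 gene Niben101Scf14882g01006.1 by 0.51 ± 0.16 in total RNA (adjusted p = 0.0063 and 0.016), a call that the S4 gene lost with library 5 alone (0.52) and the S19 gene lost when mock total library 5 or heat total library 2 was left out or a mean of at least 5 CPM was asked for.

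Among the genes that fell in total RNA, S10 was the number in which every tested gene fell. S10 lies in the head of the subunit and in bacteria also takes part in transcription antitermination. Its 7 genes, 5 with an archaeal match and 2 of bacterial type, had changes from -1.96 to -0.46, and all 7 stayed below 0 with library 5 alone, where 4 were called. The S10 gene Niben101Scf02688g06010.1, with an archaeal match, was at 2.85, 4.05 and 4.36 CPM in mock total RNA and 1.43, 0.697 and 0.731 CPM in heat total RNA. In polysome RNA it went from 6.28, 6.11 and 4.25 CPM to 0.861, 0.845 and 1.12 CPM. It fell by 1.96 ± 0.31 and 2.56 ± 0.35 (adjusted p = 7e-05 and 1.3e-05), with no overlap of heat and mock in either fraction.

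S31, known as bTHX or plastid-specific ribosomal protein 4, is a small protein of the subunit head that plastids share with some bacteria. The S31 chloroplastic gene Niben101Scf24322g00010.1 was at 31.7, 30.2 and 32.2 CPM in mock total RNA and at 17.2, 14.6 and 12.4 CPM in heat total RNA. In polysome RNA it was at 161, 145 and 149 CPM in mock and 51.3, 54.8 and 51.4 CPM in heat. It fell by 1.09 ± 0.14 and 1.53 ± 0.14 (adjusted p = 8.9e-06 and 1.6e-07). The second S31 chloroplastic gene, Niben101Scf01318g00005.1, had changes of -0.39 in total RNA (adjusted p = 0.037) and 0.20 in polysome RNA (adjusted p = 0.28), and its total RNA call ended with RLE size factors, without a filter on low counts, with DESeq2, with library 5 alone, and when mock total library 6 or 7, any heat total library, mock polysome library 4 or heat polysome library 6 or 7 was left out.

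S17 and S20 bind the 16S RNA directly at the start of assembly. The S17 gene Niben101Scf01374g00008.1 fell from 80.9, 78.0 and 101 CPM to 37.8, 40.6 and 38.1 CPM in total RNA (log2 change -1.16 ± 0.17, adjusted p = 4.2e-05). The S17 gene Niben101Scf21202g00009.1 fell from 61.5, 56.7 and 86.7 CPM to 28.8, 28.8 and 28.3 CPM (log2 change -1.25 ± 0.20, adjusted p = 5.8e-05). No other of the 12 S17 genes was called in total RNA. The S20 gene Niben101Scf02318g02002.1 was at 72.8, 53.0 and 72.2 CPM in mock total RNA and 43.0, 40.9 and 37.0 CPM in heat total RNA, and fell by 0.71 ± 0.15 (adjusted p = 0.0011). All 3 genes were also called with library 5 alone, with changes of -1.03, -1.07 and -0.82.

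S21 takes part in starting translation on the messenger RNA, and 3 of its 5 genes fell in total RNA. The gene Niben101Ctg16216g00002.1 was at 33.7, 36.4 and 42.1 CPM in mock and 18.4, 16.1 and 18.3 CPM in heat, a fall of 1.09 ± 0.14 on the log2 scale (adjusted p = 9e-06). The sparser gene Niben101Scf15120g01014.1 went from 1.33, 0.998 and 1.28 CPM to 0.229, 0.253 and 0.244 CPM (log2 change -2.27 ± 0.44, adjusted p = 4e-04). Its heat total values were all below the filter's 0.813 CPM, at a few counts each. The gene thus entered the test only through other groups, and the size of its fall is uncertain. Heat and mock did not overlap in either gene, and both were called with library 5 alone.

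S9 reaches with its tail into the site of the peptidyl transfer RNA, and S14 is a head protein. The S9 gene of bacterial type Niben101Scf05799g01022.1 went from 58.9, 56.8 and 77.4 CPM to 39.0, 36.1 and 35.4 CPM in total RNA (log2 change -0.81 ± 0.15, adjusted p = 0.00032). Of the 5 S14 genes of bacterial type that were tested, all 5 fell with all libraries and 2 with library 5 alone. The change was then -0.50 in Niben101Scf02078g05004.1 and 0.22 in Niben101Scf07036g02008.1 (adjusted p = 0.55 and 0.87), against -3.64 and -3.53 with all libraries, the last gene chosen after its values were seen. In the 2 that fell both ways, Niben101Scf05363g04002.1 and Niben101Scf06682g00007.1, chosen after their values were seen, mock total library 5 lay near libraries 6 and 7. The first was at 4.38, 5.34 and 6.15 CPM in mock and 1.54, 1.77 and 2.07 CPM in heat, and its change was -1.55 with all libraries and -1.25 with library 5 alone.

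In other genes with plastid-genome numbers the fall in total RNA rested on libraries 6 and 7. A value above 0 with library 5 alone does not show a rise in these genes. S12 is the protein of the decoding site at which streptomycin resistance arises. The S12 gene Niben101Scf03953g02018.1 was at 0.952, 30.8 and 22.4 CPM in mock total RNA and 1.20, 1.14 and 1.83 CPM in heat total RNA. It fell by 3.69 ± 0.75 (adjusted p = 0.00065) with all libraries, and its value was 0.57 (adjusted p = 0.49) with library 5 alone. This gene model also carries a domain of an NADH dehydrogenase chain, as do the S12 models Niben101Scf01210g00013.1 and Niben101Scf05683g00015.1.

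The S2 chloroplastic gene Niben101Scf04529g00011.1, of a protein on the back of the subunit, was at 8.37, 77.3 and 58.5 CPM in mock total RNA and 12.4, 14.8 and 10.2 CPM in heat total RNA. Its change was -1.94 ± 0.55 (adjusted p = 0.0075) with all libraries and 0.61 with library 5 alone, and the call also ended when mock total library 6 was left out. This gene model also carries an ATPase F0 subunit A domain. The S14 gene Niben101Scf02309g03022.1 turned from -3.01 to 0.91, and the S7 chloroplastic gene Niben101Scf01209g07017.1 from -1.35 to 0.65. The S7 gene's call also ended when mock total library 6 or 7 or heat total library 2 or 4 was left out.

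With mock total library 5 alone, 8 genes rose and 18 fell in total RNA, of 161 tested, against 17.8% and 17.2% of all genes in that fit. All 18 were among the 67, and 11 of the 67 had the opposite sign, 9 with plastid-genome numbers and 2 with nuclear-only numbers. The class with plastid-genome numbers had a median of -0.56 with all libraries and 0.22 with library 5 alone, the class with nuclear-only numbers -0.28 and -0.17, and the class with an archaeal match -0.41 and -0.28. No gene with an archaeal match changed sign among the 29 that fell, and 5 of them were called. The part of organellar RNA content in these values was not tested.

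**Figure D2:**
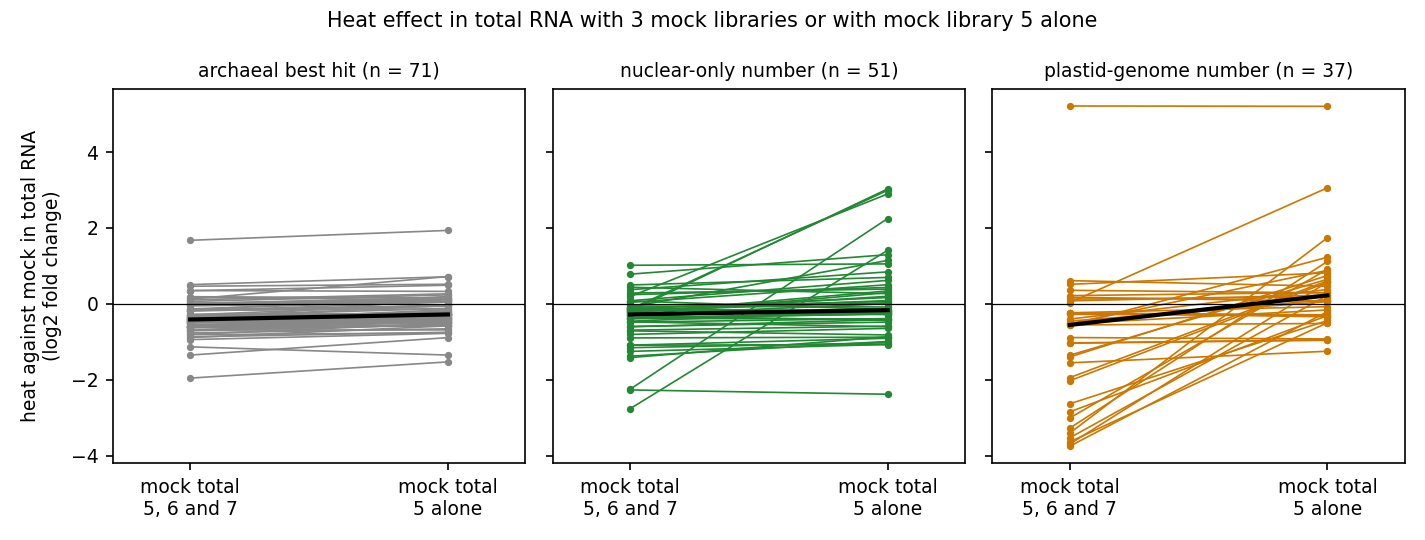
Heat against mock in total RNA (log2 fold change) for each tested gene, with all 3 mock total libraries (left) and with mock total library 5 alone (right), joined by a line, with the class median in black. The class with plastid-genome numbers moves from a median of -0.56 to about 0.22, and the class with an archaeal match from -0.41 to -0.28.

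In polysome RNA, 28 of the 159 genes rose, 41 fell and 90 did not pass, while 28.1% of all genes rose and 28% fell. The median change was -0.09, against -0.06 over all genes. By class, 7 rose and 25 fell of 71 with an archaeal match (median -0.33). With nuclear-only numbers 13 rose and 13 fell of 51 (median -0.02), and with plastid-genome numbers 8 and 3 of 37 (median 0.05). Differences between the classes were not tested. Without mock polysome library 3, 4 genes with an archaeal match rose and 35 fell. All 5 genes that rose in total RNA also rose in polysome RNA. Of the 67 that fell in total RNA, 21 fell in polysome RNA, 3 rose and 43 were not called. In the mean heat effect over both fractions 18 rose and 71 fell, against 31.3% and 34.4% of all genes.

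**Figure D3:**
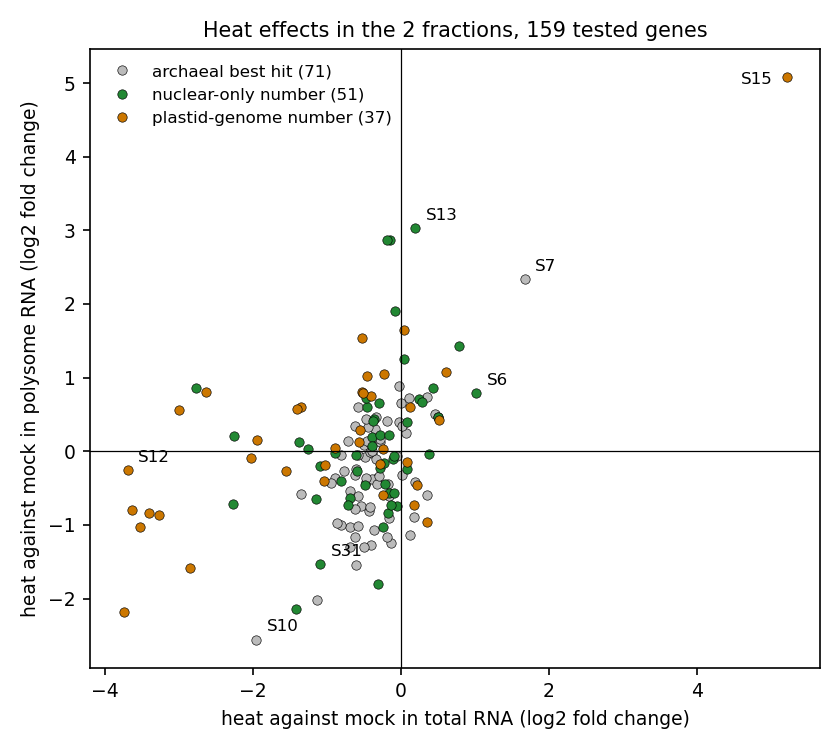
Heat against mock in total RNA (horizontal) and in polysome RNA (vertical), both as log2 fold change, for 159 tested genes coloured by class. The S15, S7 and S6 genes described in the text lie at upper right, S10 and S31 at lower left, 3 sparse S13 genes near 0 in total RNA and near 3 in polysome RNA, and a row of genes with plastid-genome numbers lies below -2 in total RNA.

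S13 and S7 of bacterial type each gave 5 of the 28 rises in polysome RNA. S13 is a head protein that touches the transfer RNA and the large subunit. Of the 6 tested S13 genes of bacterial type, 5 rose, and 4 of them were sparse genes. Niben101Scf09620g05001.1 was at 0.666, 0.535 and 0.448 CPM in mock polysome RNA and 6.15, 3.91 and 3.73 CPM in heat polysome RNA, and rose by 3.03 ± 0.56 (adjusted p = 0.00025). Niben101Scf01237g04004.1, Niben101Scf04114g00031.1 and Niben101Scf11347g00004.1, chosen after their values were seen, rose by 2.86, 2.87 and 1.91. Heat lay above mock in polysome RNA in all 4, which were picked among the genes that rose. The share of all genes so separated was not counted, so the separation adds no support for these 4 copies. The sources do not say how reads that match several such copies were counted, so the values of single copies are uncertain.

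In total RNA the values of these sparse S13 genes depended on library 5. Niben101Scf09620g05001.1 was at 0.190, 2.17 and 1.41 CPM in mock and 1.43, 1.46 and 1.46 CPM in heat. Its change was 0.19 with all libraries and 2.90 with library 5 alone, and for the next 2 genes it went from -0.14 and -0.19 to 2.99 and 3.03. In Niben101Scf11347g00004.1 it was -0.08 with all libraries and 1.14 with library 5 alone. The values with library 5 alone rest on 1 mock total library, whose own spread is unknown. The remaining 2 S13 genes of bacterial type were far better counted. Niben101Scf05106g00011.1 was at 175, 140.5 and 174 CPM in mock polysome RNA and 246, 202 and 201 CPM in heat polysome RNA, and rose by 0.41 ± 0.15 (adjusted p = 0.029), a call that ended with a mean of at least 5 CPM, in a fit of the compared libraries alone, and when mock polysome library 3 or heat polysome library 5 was left out.

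Of the 7 S7 chloroplastic genes, 6 were tested and 5 rose in polysome RNA, by 0.75 to 1.54. The best counted, Niben101Scf05142g00023.1, was at 16.1, 23.7 and 15.8 CPM in mock polysome RNA and 21.6, 37.0 and 34.9 CPM in heat polysome RNA, so that the groups overlapped through mock library 3 and heat library 5 (log2 change 0.75 ± 0.26, adjusted p = 0.022). Its call ended when mock polysome library 2 or 4 or heat polysome library 6 or 7 was left out. In Niben101Scf04231g00003.1, chosen after its values were seen, the groups did not overlap, with 7.42, 5.88 and 5.82 CPM in mock and 11.6, 15.6 and 11.5 CPM in heat (log2 change 1.02 ± 0.23, adjusted p = 0.0015). Without mock polysome library 3, 7 S7 chloroplastic genes were tested and 4 rose.

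An S3 gene with an archaeal match, Niben101Scf05002g03030.1, was at 68.1, 46.4 and 54.1 CPM in mock polysome RNA and 125, 95.0 and 90.8 CPM in heat polysome RNA, with no overlap. S3 lines the channel through which messenger RNA enters. The gene rose by 0.89 ± 0.19 in polysome RNA (adjusted p = 0.0011), with a total RNA change of -0.02. The S21 gene Niben101Scf00576g01001.1 also rose in polysome RNA, from 3.33, 2.67 and 3.58 CPM to 6.15, 8.76 and 7.84 CPM (log2 change 1.26 ± 0.24, adjusted p = 0.00035), with a total RNA change of 0.04.

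Of the 41 falls in polysome RNA, 25 were in genes with an archaeal match. The S14 gene Niben101Scf04614g08001.1 was at 66.4, 37.3 and 47.6 CPM in mock and 19.2, 16.5 and 16.1 CPM in heat (log2 change -1.55 ± 0.21, adjusted p = 1.1e-05). The S19 gene Niben101Scf03652g03002.1, of the protein that pairs with S13 in the head, was at 194, 101 and 161 CPM in mock and 67.6, 56.7 and 61.1 CPM in heat (log2 change -1.30 ± 0.19, adjusted p = 3.8e-05). The S9 gene Niben101Scf05955g00013.1 was at 121, 67.6 and 106 CPM in mock and 40.3, 38.4 and 44.9 CPM in heat (log2 change -1.25 ± 0.21, adjusted p = 8.9e-05). In each of these genes mock polysome library 3 was the lowest of the mock libraries and still above all heat libraries.

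Of the S12 genes with an archaeal match, 0 rose and 5 fell of 9. Niben101Scf36191g00005.1 was at 24.1, 17.03 and 22.4 CPM in mock polysome RNA and 9.59, 10.7 and 7.97 CPM in heat polysome RNA (log2 change -1.16 ± 0.19, adjusted p = 1e-04). S8, which binds the central domain of the 16S RNA, had a strong fall in Niben101Scf05926g01002.1, from 83.7, 50.6 and 65.9 CPM to 26.6, 31.8 and 30.9 CPM (log2 change -1.16 ± 0.20, adjusted p = 0.00012).

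Of the 12 S17 genes, which are of bacterial type, 6 fell and 1 rose in polysome RNA. Niben101Scf05588g05006.1 was at 94.8, 61.3 and 78.2 CPM in mock and 29.4, 42.1 and 43.7 CPM in heat (log2 change -1.02 ± 0.24, adjusted p = 0.0016). The S17 gene that rose, Niben101Scf02836g01003.1, went from 1.05, 1.30 and 1.23 CPM to 1.84, 2.32 and 2.37 CPM (log2 change 0.86 ± 0.31, adjusted p = 0.026), and lost its call in a fit of the compared libraries alone and without mock polysome library 2 or heat polysome library 6 or 7. The S20 gene Niben101Scf02318g02002.1 fell from 325, 312 and 349 CPM to 224, 183 and 186 CPM (log2 change -0.73 ± 0.15, adjusted p = 0.00074), with no overlap. The S31 mitochondrial gene, Niben101Scf04664g00003.1, chosen after its values were seen, was at 20.7, 17.8 and 17.5 CPM in mock and 4.55, 4.96 and 6.60 CPM in heat (log2 change -1.80 ± 0.22, adjusted p = 3.8e-06), while its total RNA change was -0.31 (adjusted p = 0.25).

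**Figure D4:**
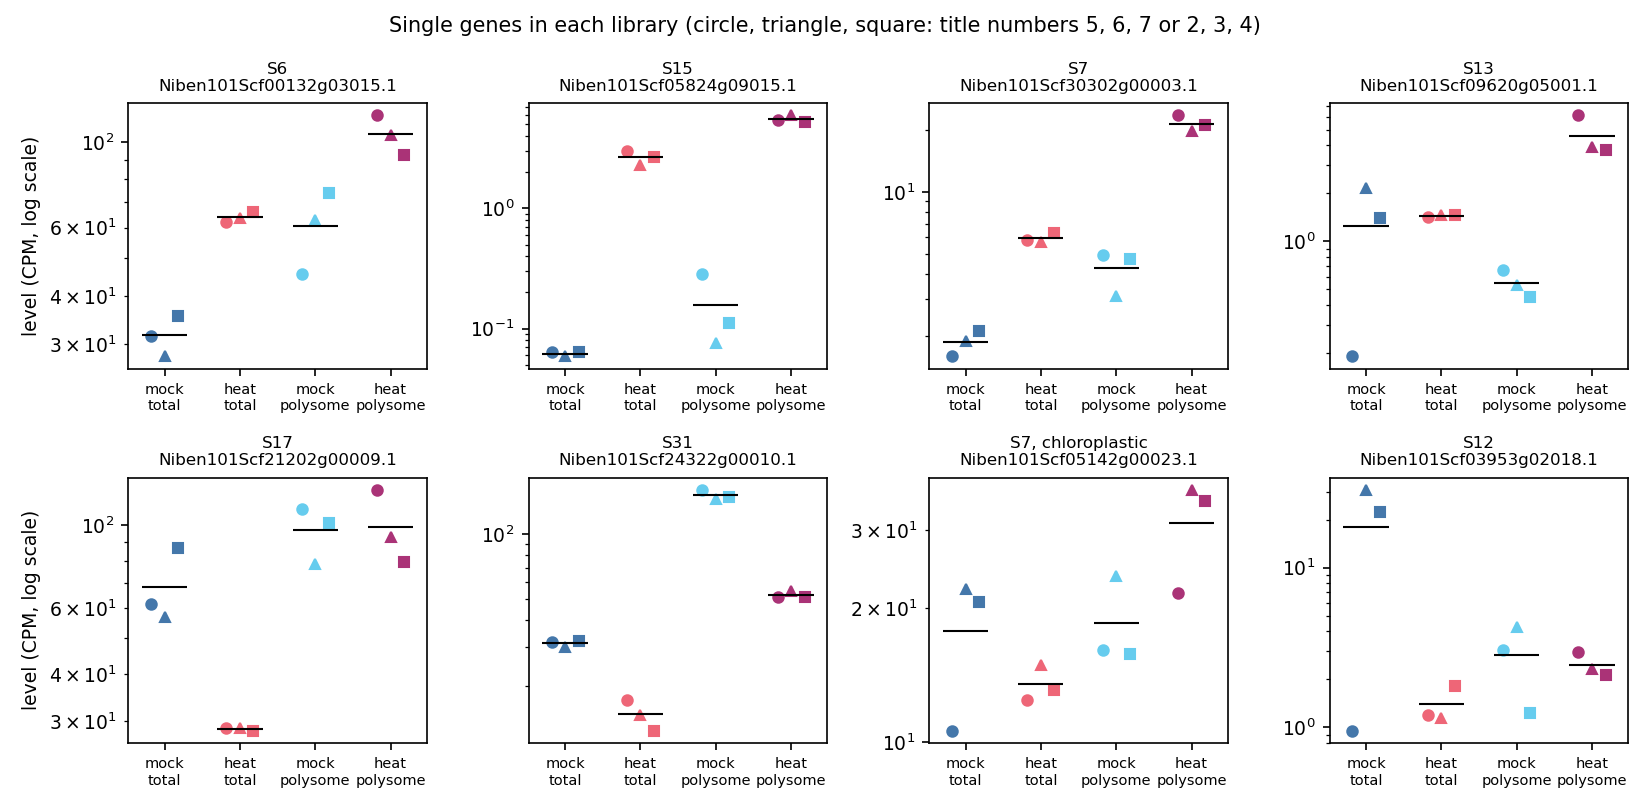
Level in each library (CPM, logarithmic axis, scaled separately for each gene) of 8 genes, with bars at the mean of 3 libraries. The S6, S15 and S7 (Niben101Scf30302g00003.1) genes are higher in heat in both fractions, S31 is lower in heat in both, S17 is lower in heat in total RNA alone, and in S13 and S12 the lowest mock total point is library 5.

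The heat effect on polysome loading, the change in the log2 ratio of polysome to total RNA, was tested as an interaction. It asks whether the 2 fractions responded differently, and shares its libraries with the other comparisons. Of the 159 genes, 29 rose in loading and 10 fell, against 10.2% and 8.42% of all genes, with a median of 0.40 against 0.07. With mock total library 5 alone the counts were 3 and 5 of 161, against 3.77% and 2.91% of all genes, with a median of 0.04. By class the counts were 4 that rose and 7 that fell with an archaeal match, 13 and 1 with nuclear-only numbers, and 12 and 2 with plastid-genome numbers. With library 5 alone they were 0 and 3, 3 and 1, and 0 and 1. With 1 library left out, 45 genes rose in loading without mock total library 5, and 15 to 19 without mock total library 6 or 7, any heat total library, mock polysome library 4 or heat polysome library 5. The genes that fell in loading numbered 5 without mock total library 6, any heat total library or heat polysome library 6.

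In 3 genes loading rose both with all libraries and with library 5 alone. The S17 gene Niben101Scf21202g00009.1 had 111, 78.9 and 101 CPM in mock polysome RNA and 124, 93.1 and 79.8 CPM in heat polysome RNA, which overlapped, while its total RNA fell. Its loading rose by 1.28 ± 0.27 (adjusted p = 0.0052) and by 1.12 with library 5 alone. The S6 gene Niben101Scf08326g00049.1 was at 13.1, 10.1 and 11.9 CPM in mock total RNA, 8.58, 8.30 and 8.34 CPM in heat total RNA, 22.4, 16.4 and 23.3 CPM in mock polysome RNA and 43.9, 32.1 and 26.1 CPM in heat polysome RNA. Its loading rose by 1.20 ± 0.27 (adjusted p = 0.0077) and by 1.35 with library 5 alone. The other was the S6 gene Niben101Scf02011g09010.1, chosen after its values were seen, with a rise of 0.87 ± 0.21 and of 0.88.

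Loading fell under both sets of libraries in 4 genes. The S2 gene Niben101Scf01538g00028.1 was at 17.3, 15.4 and 15.8 CPM in mock total RNA, 22.8, 19.8 and 19.4 CPM in heat total RNA, 27.7, 27.6 and 30.7 CPM in mock polysome RNA and 10.7, 16.4 and 17.2 CPM in heat polysome RNA. Its loading fell by 1.31 ± 0.23 (adjusted p = 0.0019). Its model also carries a UTP-glucose-1-phosphate uridylyltransferase domain. The other 3 had an archaeal match: the S9 gene Niben101Scf05955g00013.1 (-1.12 ± 0.29, adjusted p = 0.015), the S12 gene Niben101Scf36191g00005.1 (-0.98 ± 0.27, adjusted p = 0.019) and the S19 gene Niben101Scf03921g00005.1 (-1.27 ± 0.36, adjusted p = 0.025). The S19 call ended when heat total library 4 or heat polysome library 5 or 6 was left out, and the S12 call when mock total library 6 or heat total library 3 was.

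Loading calls of the S10 genes of bacterial type rested on all 3 mock total libraries. Niben101Scf05581g00006.1, with a cyanobacterial match, was at 70.4, 82.8 and 96.1 CPM in mock total RNA, 61.1, 60.8 and 59.6 CPM in heat total RNA, 60.8, 61.8 and 62.7 CPM in mock polysome RNA and 113, 86.7 and 81.7 CPM in heat polysome RNA. Total RNA was lower and polysome RNA higher in heat, with no overlap in either fraction. Its loading rose by 1.06 ± 0.22 (adjusted p = 0.0039), with 0.81 (adjusted p = 0.065) with library 5 alone. Niben101Scf04444g03001.1 rose by 1.50 ± 0.34 (adjusted p = 0.0072), with 1.13 (adjusted p = 0.058).

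Polysome RNA was then compared with total RNA within each treatment, which shows how much more or less of each transcript was in the polysome fraction. In mock, 83 of the 159 genes were higher in polysome RNA and 19 lower, against 27% and 27.2% of all genes, with a median log2 ratio of 0.65 against 0.00. In heat, 97 were higher and 8 lower, against 30.8% and 28.4%, with a median of 0.99 against 0.07. With library 5 alone in mock, 83 were higher and 4 lower, against 17.9% and 19.2%, and 75 of the 83 were the same genes. The number lower in mock was 38 without mock total library 5, and 12 or 13 without mock total library 6 or 7 or mock polysome library 4. The 2 treatments share no library in these comparisons.

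Of the 71 genes with an archaeal match, 51 were higher in polysome RNA and 1 lower in mock, and 55 and 2 in heat. With nuclear-only numbers 27 were higher and 7 lower in mock and 29 and 3 in heat. With plastid-genome numbers 5 were higher and 11 lower in mock, 10 and 2 in mock with library 5 alone, and 13 and 3 in heat. The class with plastid-genome numbers thus had more genes lower than higher in polysome RNA where libraries 6 and 7 were used and not where they were left out.

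The ratios were high in both treatments for several well-counted genes. The S20 gene Niben101Scf02318g02002.1 had log2 ratios of 2.32 ± 0.16 in mock and 2.30 ± 0.16 in heat (adjusted p = 4.1e-08 and 2.4e-08). The S13 gene Niben101Scf10002g00006.1 was at 82.5, 73.0 and 84.5 CPM in mock total RNA and 259, 232 and 257 CPM in mock polysome RNA, a log2 ratio of 1.64 ± 0.16, with 2.09 ± 0.16 in heat (adjusted p = 7.3e-07 and 5.3e-08). The S11 gene Niben101Scf19719g00009.1, with an archaeal match and of a protein at the messenger RNA exit, had ratios of 2.33 ± 0.21 and 2.17 ± 0.21 (adjusted p = 3.4e-07 and 4.4e-07). S16, a protein of the body of the subunit, had ratios of 1.77 ± 0.15 and 1.87 ± 0.15 in Niben101Scf01340g02004.1 (adjusted p = 2.1e-07 and 8.7e-08).

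A few genes were lower in polysome RNA in both treatments. The S4 gene Niben101Scf03541g00012.1, with an archaeal match, was at 11.8, 12.1 and 14.8 CPM in mock total RNA and 5.04, 4.35 and 4.48 CPM in mock polysome RNA, a log2 ratio of -1.48 ± 0.18, with -0.86 ± 0.17 in heat (adjusted p = 5e-06 and 0.00042). None of the other 6 tested S4 genes with an archaeal match was called lower, and 5 of them were higher in mock. The S15 gene Niben101Scf06156g02003.1 had ratios of -2.21 ± 0.38 and -1.73 ± 0.37 (adjusted p = 0.00018 and 0.00083), and the S9 gene of bacterial type Niben101Scf06848g10014.1 had -0.79 ± 0.26 and -1.20 ± 0.26 (adjusted p = 0.018 and 0.001). The mock call of this S9 gene ended in a fit of the compared libraries alone, with library 5 alone, and when mock total library 6 or 7 or mock polysome library 2 was left out.

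The S7 chloroplastic genes had ratios near or below 0 in mock, from -0.79 to 0.06 with none called, and from 1.15 to 1.28 in heat, where 5 of 6 were higher. With library 5 alone the mock ratios of the same 6 genes were all above 0, from 0.15 to 1.25, and Niben101Scf01209g07017.1 was called higher (adjusted p = 0.039). S1, which in bacteria helps the ribosome take up messenger RNA, had 1 well-counted gene, Niben101Scf03840g02006.1, at 96.0, 96.4 and 102 CPM in mock total RNA, 82.8, 77.6 and 82.1 CPM in heat total RNA, 111, 126 and 136 CPM in mock polysome RNA and 155, 144 and 135 CPM in heat polysome RNA. Heat did not pass in either fraction (log2 changes -0.28 and 0.22, adjusted p = 0.077 and 0.16). Its ratio of polysome to total RNA was 0.84 ± 0.13 in heat (adjusted p = 4.5e-05).

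**Figure D5:**
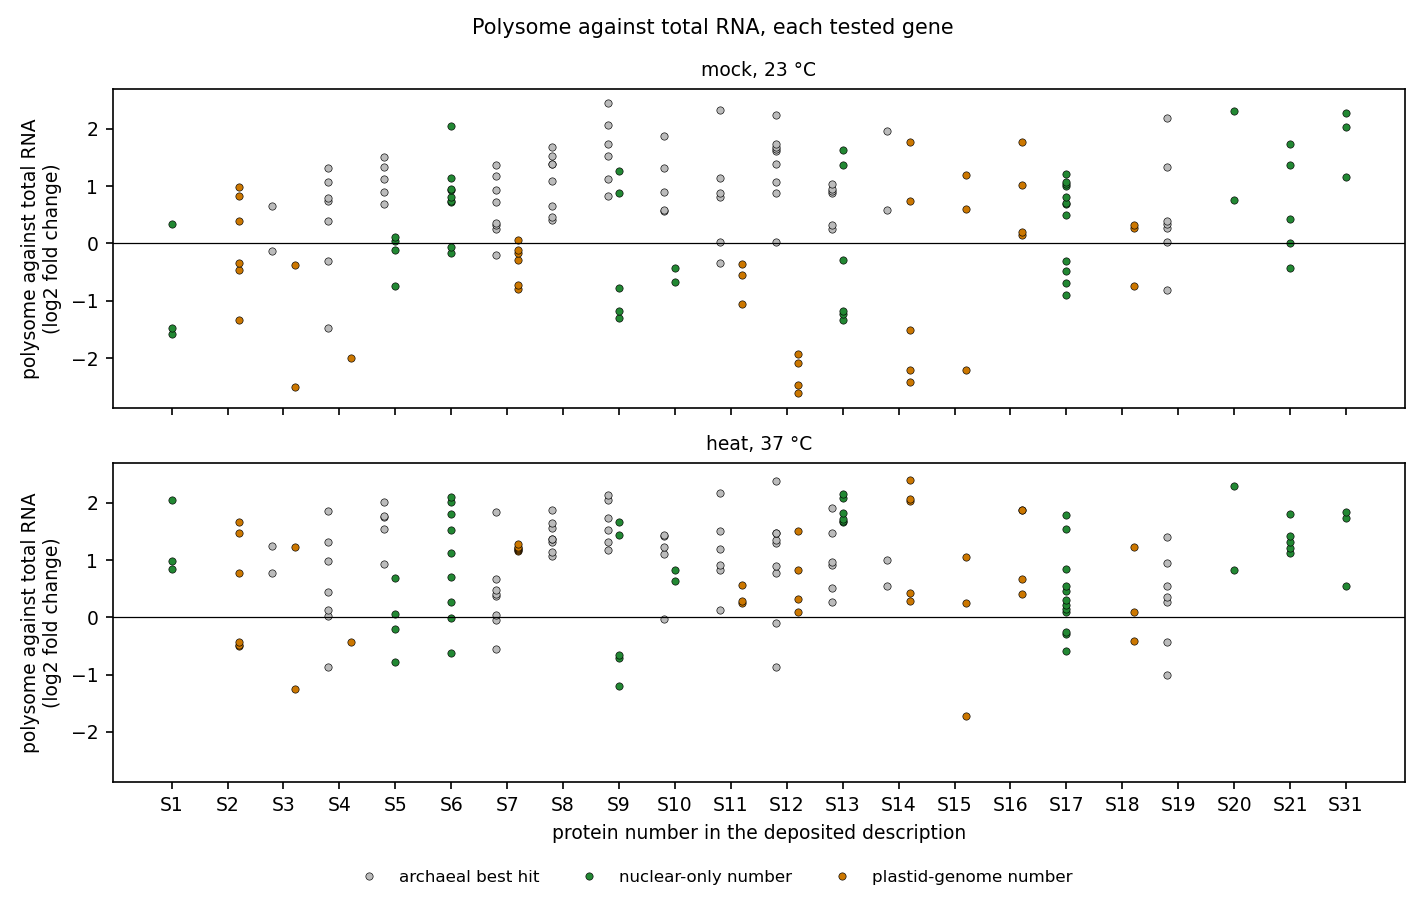
Polysome against total RNA (log2 fold change) for each tested gene, by protein number and coloured by class, in mock (top) and heat (bottom). In mock 83 genes and in heat 97 genes were called above 0, and genes with plastid-genome numbers were 11 of the 19 called below 0 in mock and 3 of the 8 in heat.

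Genes that work beside the 30S proteins are given as counts, to be read against the 25.7% of all genes that rose and 28.3% that fell in total RNA, and 28.1% and 28% in polysome RNA. The 50S list, the large subunit of the same name type, had 12 genes that rose and 97 that fell of 235 in total RNA, and 40 and 62 in polysome RNA. The 40S list, named for the cytosolic small subunit, had 7 and 34 of 118 in total RNA and 14 and 41 in polysome RNA. The list of initiation, elongation and release factors had 13 and 27 of 76 in total RNA and 15 and 27 in polysome RNA. It was matched on names of bacterial-type factors anywhere in the text, and cytosolic factors were not excluded. Factors for 30S assembly and 16S RNA modification had 4 and 18 of 45, and 4 and 19. RNA polymerase subunits and sigma factors of plastid type had 2 and 4 of 15, and 4 and 3. In mock, 64 of the 118 genes of the 40S list and 104 of the 235 genes of the 50S list were higher in polysome than in total RNA, beside 83 of the 159 genes described here and 27% of all genes.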

How the data were processed

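Leaf RNA was sequenced in 12 libraries, 3 in each of 4 groups set by treatment and fraction in the titles. The deposited table holds whole-number counts per gene, headed as raw data per the file headers, and these alone were tested. Its signal values are counts that the authors divided by a size factor per library, and its log2 values are ratios of group means made by the authors, both per the file headers. Tools named in the submitters' processing notes are DESeq, HTSeq 0.11.0, HISAT2 and cutadapt. Their roles, strand setting and genome build are not given in the sources used here. The lowest count was 1 in all 12 libraries. The table had 2 emptied lines, not analysed here, and 0 columns without a sample.

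Counts were fitted over all 12 libraries with 1 mean per group in edgeR 4.0.16 (R 4.3.3, TMM, a filterByExpr minimum of 10 counts, quasi-likelihood test, Benjamini-Hochberg over 34325 genes, threshold 0.05). The procedure was also run on simulated data with the same spread in every group. The spread of these libraries was not so even, so that run does not vouch for the calls. CPM use TMM library sizes, and SE was computed as the change over the root of F. There were 6 comparisons: heat in each fraction, their difference (loading), polysome against total RNA in each treatment, and the mean heat effect. P-values rest on the spread between libraries of all 4 groups. No 2 libraries of a group agreed within sampling noise (chi-square per degree of freedom 1.73 to 34.9). Counting intervals are at 95% and cover counting error only, as does the floor of 3 counts over a group. Library totals of 10724854 to 14485118 counts leave genes near 0.1 CPM at a few reads.

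The genes and lists were chosen with earlier results of these data known. Named genes are, for each protein number, the one with the highest mean CPM; in each comparison, up to 5 rises and 5 falls past the threshold among genes above the median CPM of tested genes (17); and, where a number had calls both ways, the strongest each way. Genes outside this rule were chosen after their values were seen. Tried as alternatives were DESeq2 1.42.0, a 5 CPM minimum for the mean, no filter, RLE size factors, counts less 1, the compared libraries alone, each library left out, mock total library 5 alone, and the title number as a block. Same-numbered libraries did not deviate together (correlations -0.0588 to -0.00316), so the numbers were not used to pair libraries. The database match of each gene and its protein domains are those of the deposited table.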

Additional observations from a re-analysis of the deposited data

Results flagged for a closer look

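The heat effect differed between polysome and total RNA in 25 of the named genes, by the interaction test at an adjusted p of 0.05 (edgeR). Some genes were named because they passed this test, so the number 25 partly reflects that choice. Of the 159 tested genes, 29 rose in loading and 10 fell, against 10.2% and 8.42% of all genes. Each value is the polysome change minus the total RNA change on the log2 scale, followed by its value with mock total library 5 alone. No explanation was weighed.

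In 17 genes the difference was positive. Its sign turned with library 5 alone in 3 of them, the S14 gene Niben101Scf02309g03022.1 (3.56, then -0.33), the S12 gene Niben101Scf03953g02018.1 (3.44, then -0.80) and the S7 gene Niben101Scf01209g07017.1 (1.95, then -0.03). It shrank most in the S13 gene Niben101Scf09620g05001.1 (2.84, then 0.16) and the S7 gene Niben101Scf05142g00023.1 (1.15, then 0.39). It passed with library 5 alone in the S17 gene Niben101Scf21202g00009.1 (1.28, then 1.12) and the S6 gene Niben101Scf08326g00049.1 (1.20, then 1.35).

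The other positive differences kept their sign and did not pass with library 5 alone. They were in the S10 genes Niben101Scf04444g03001.1 (1.50, then 1.13) and Niben101Scf05581g00006.1 (1.06, then 0.81), the S11 gene Niben101Scf03293g01005.1 (1.29, then 1.15) and the S21 genes Niben101Scf00576g01001.1 (1.22, then 0.78) and Niben101Ctg16216g00002.1 (0.89, then 0.73). The S8 gene Niben101Scf08211g03016.1 (1.19, then 1.14), the S3 gene Niben101Scf05002g03030.1 (0.91, then 0.80), the S5 gene Niben101Scf01436g03010.1 (0.80, then 0.73), the S13 gene Niben101Scf05106g00011.1 (0.79, then 0.69) and the S12 gene Niben101Scf01994g02009.1 (0.77, then 0.74) complete them.

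In 8 genes the difference was negative and stayed so with library 5 alone. It passed both ways in the S2 gene Niben101Scf01538g00028.1 (-1.31, then -1.22), the S19 gene Niben101Scf03921g00005.1 (-1.27, then -1.84), the S9 gene Niben101Scf05955g00013.1 (-1.12, then -1.31) and the S12 gene Niben101Scf36191g00005.1 (-0.98, then -1.19). It did not pass with library 5 alone in the S19 gene Niben101Scf03824g02002.1 (-1.07, then -0.98), the S14 gene Niben101Scf04614g08001.1 (-0.94, then -1.11), the S12 gene Niben101Scf00730g00026.1 (-0.75, then -0.84) and the S4 gene Niben101Scf00272g11021.1 (-0.61, then -0.55).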

How the results depend on the processing

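Mock total library 5 as the sole mock total library gives a fit with fewer samples. With it, in total RNA 8 rose and 18 fell, in loading 3 rose and 5 fell, in mock 4 were lower in polysome RNA, and 45 fell in the mean heat effect, against 71 with all libraries. A mean of at least 5 CPM, which tests fewer genes, left 3 that rose in total RNA, 10 in polysome RNA and 4 in the mean heat effect, and 8 lower in polysome RNA in mock. In a fit of the compared libraries alone 11 were lower in polysome RNA in mock.

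With 1 library left out, the genes that rose and fell numbered 4 to 7 and 40 to 83 in total RNA, 22 to 34 and 35 to 50 in polysome RNA, and 15 to 45 and 5 to 13 in loading. Those higher and lower in polysome RNA numbered 74 to 90 and 12 to 38 in mock and 88 to 105 and 6 to 10 in heat. In the mean heat effect 15 to 25 rose and 59 to 81 fell.

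Over all 159 genes described, the sign of a called value turned with library 5 alone in 11 genes in total RNA, 6 in loading and 7 in polysome against total RNA in mock. Among the genes named by rule, counting values called in either fit, a sign turned in 11 results of 6 genes. This happened under no other alternative run. In total RNA, Niben101Scf01209g07017.1 came to 0.65, Niben101Scf02309g03022.1 to 0.91, Niben101Scf03953g02018.1 to 0.57 and Niben101Scf04529g00011.1 to 0.61. In loading, the first 3 came to -0.027, -0.33 and -0.80. For polysome against total RNA in mock, Niben101Scf00558g00006.1 came to 1.50, Niben101Scf01209g07017.1 to 1.25, Niben101Scf02078g05004.1 to 0.68 and Niben101Scf03953g02018.1 to 1.60. The mock value of Niben101Scf01209g07017.1 was not called with all libraries. The cause was not tested.

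With the title number as a replicate block, which could be fitted for the mean heat effect alone, 19 genes rose and 64 fell, against 18 and 71 without it. RLE size factors moved the median of all genes by at most 0.0712 on the log2 scale. Counts in single digits, as in the S15, sparse S13 and sparse S21 genes, limit precision by counting.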
